A study of Mus musculus with 6 samples.

Results

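The 8 genes described here, Myh7, Tnnc1, Tnni1, Tnnt1, Myl2, Myl3, Tpm3 and Atp2a2, encode the contractile proteins and the calcium pump that slow-twitch muscle fibres use. They were taken by gene symbol with all of their probe sets, which gave 19 of the 45037 probe sets that are not controls, and 8 of 18193 genes that have a probe set of their own. The skin came from the backs of 3 Get1 -/- and 3 Get1 +/+ mice at e18.5, late in gestation, with 1 oligonucleotide array per mouse. Get1 is an earlier name of Grhl3, which encodes a grainyhead-like transcription factor of surface epithelia. The labels name no strain, no litter and no Cre line, and they do not say which part of the gene was removed. The members were chosen by these same array values, with their difference between Get1 -/- and Get1 +/+ skin already known, so the differences of the 8 genes are given as descriptions and not as tests.

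Striated muscle comes in fibre types that build the same sarcomere from different gene copies. Slow fibres use the type I heavy chain, slow troponins and the SERCA2 calcium pump, shorten slowly and resist fatigue, and most of these copies also serve the heart. Fast fibres use their own heavy chains, fast troponins and SERCA1. Mouse back skin carries a thin sheet of striated muscle, the panniculus carnosus, which in the adult is made up mostly of fast fibres, so excised skin includes muscle RNA beside that of epidermis and dermis.

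Signals are MAS5 intensities in arbitrary units, with the same trimmed mean on every array as deposited, and differences are Get1 -/- minus Get1 +/+ on the log2 scale. A filter kept probe sets with a geometric mean signal of at least 137, the median of all, and 16 of the 19 member probe sets passed it. Array pairs correlated at 0.916 to 0.971 over the kept probe sets. The only Grhl3 probe set read 346 ± 88.5 in Get1 -/- and 694 ± 229 in Get1 +/+ skin (SD, n = 3 each), and, as the deleted part is not stated, it checks nothing about the genotype. The ratio of the 3' to the 5' beta-actin control was 1.36 to 1.49 on the Get1 -/- arrays and 1.35 to 1.37 on the Get1 +/+ arrays.

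Of the 16 member probe sets that passed the filter, 0 passed limma's test at an adjusted p under 0.05, also with the replicate number as a block, and 8 had an unadjusted p under 0.05. Over all kept probe sets 0.0266% passed the adjusted threshold (6 of 22519), 0.155% passed it with the block (35), and 6.72% had an unadjusted p under 0.05. All 3 Get1 -/- signals lay above all 3 Get1 +/+ signals in 7 of the 19 member probe sets, against 4.29% of all probe sets, and all 3 lay below in 3 of the 19, against 6.49%. Because this contrast chose the genes, nothing is read from these shares.

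**Figure D1:**
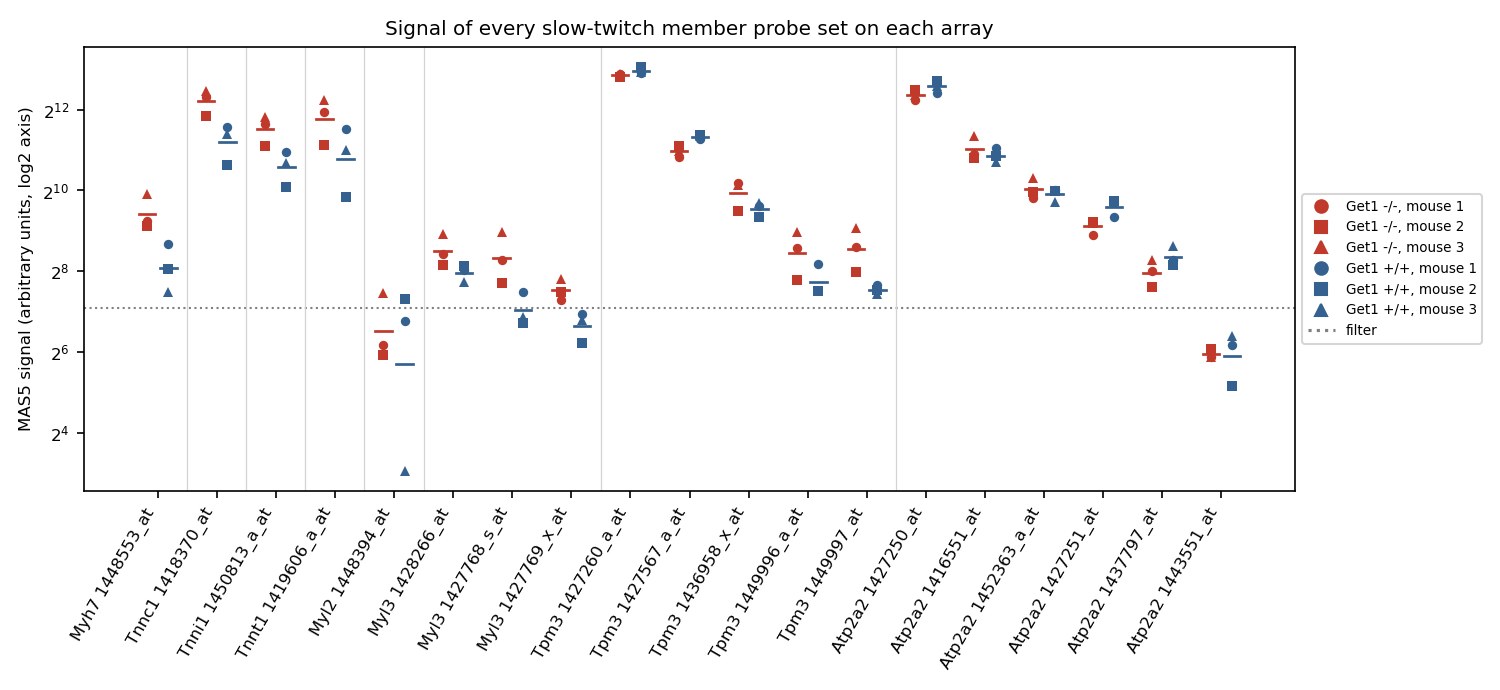
MAS5 signal (log2 axis) of each of the 19 member probe sets on each array, with Get1 -/- in red and Get1 +/+ in blue, 1 symbol per mouse, short bars for the geometric mean of a genotype and a dotted line at the filter of 137. The red and blue symbols of Myh7, Tnnc1 and Tnni1 do not overlap, while the Tpm3 and Atp2a2 probe sets go in both directions.

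Because Tnnc1, Tnni1, Tnnt1 and Myh7 had the largest differences of the 8 genes by the probe set with the highest mean, the 150 bases directly before the most upstream RefSeq start of each are shown, 5′ to 3′ on the gene's strand, from RefSeq on GRCm38.p6. The regions are chr14:31208162-31208311 (plus strand) for Tnnc1, chr1:135799271-135799420 (plus strand) for Tnni1, chr7:4515976-4516125 (minus strand) for Tnnt1 and chr14:54994627-54994776 (minus strand) for Myh7. Capitals mark matches, on either strand, to 5 motifs of muscle or general promoters. These are the E-box CANNTG of myogenic factors, the M-CAT element CATTCC of TEAD factors, the TATA box TATAAA, the MEF2 site and the CArG box.
Tnnc1: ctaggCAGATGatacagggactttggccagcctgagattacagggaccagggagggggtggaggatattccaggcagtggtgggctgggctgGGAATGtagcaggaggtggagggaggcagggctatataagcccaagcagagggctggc
Tnni1: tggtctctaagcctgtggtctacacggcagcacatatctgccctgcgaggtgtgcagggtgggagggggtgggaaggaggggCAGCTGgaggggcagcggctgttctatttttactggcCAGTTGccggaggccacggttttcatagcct
Tnnt1: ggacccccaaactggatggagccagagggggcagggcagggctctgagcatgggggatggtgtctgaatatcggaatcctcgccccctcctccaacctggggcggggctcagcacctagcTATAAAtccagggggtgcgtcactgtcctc
Myh7: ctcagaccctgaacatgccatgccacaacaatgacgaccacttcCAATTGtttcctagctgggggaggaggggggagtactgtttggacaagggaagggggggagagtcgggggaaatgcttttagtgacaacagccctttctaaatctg

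The E-box stood in the stretches of Tnnc1, Tnni1 and Myh7, the M-CAT element in that of Tnnc1 and the TATA box in that of Tnnt1, with 0 overlaps among the marked matches and 0 matches to the MEF2 site or the CArG box. Over the full window of 300 bases, with 250 before and 50 after a start, RefSeq's table holds 11 starts for 7 of the 8 genes, all but Atp2a2. The E-box stood in 11 of the 11, against 72.3% of all 32851 windows. The M-CAT element stood in 3 of the 11, against 14.7%, and the CACC box, CCACCC, in 9 of the 11, against 31.5%. The TATA box stood in 2, against 13.6%, the CArG box in 1, against 1.63%, and the MEF2 site in 0, against 0.557%. The windows of Tnni1 overlap each other, as do those of Myh7, so some matches are counted more than once. By gene, the E-box stood in 7 of the 7, the M-CAT element in 3 and the CACC box in 6. The TATA box stood in 2 genes, the CArG box in 1 and the MEF2 site in 0. No share by gene was computed for all windows. A match is a description of the letters and shows no binding. None of the 8 genes lies on chromosome 4, which holds Grhl3.

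The troponins are the calcium switch of the thin filament. Tnnc1 encodes the slow and cardiac troponin C, the subunit that binds calcium. It read 5075, 3684 and 5640 on the Get1 -/- arrays, against 3043, 1590 and 2721 on the Get1 +/+ arrays, so the lowest Get1 -/- value lay above the highest Get1 +/+ value. The difference was 1.00 ± 0.26 (SE) on the log2 scale. In bulk skin a larger number of slow fibres and more slow transcript per fibre cannot be told apart.

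Tnni1 encodes the slow form of troponin I, the inhibitory subunit, and it followed the same order of arrays. Its signal was 3209, 2202 and 3627 in Get1 -/- and 1974, 1096 and 1640 in Get1 +/+ skin, and here too the genotypes did not overlap, though Get1 -/- mouse 2 and Get1 +/+ mouse 1 were close. The difference was 0.95 ± 0.26 (SE).

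Tnnt1 encodes the slow form of troponin T, the subunit that ties the complex to tropomyosin. It read 3951, 2234 and 4849 in Get1 -/- skin, against 2920, 913 and 2036 in Get1 +/+ skin. Get1 +/+ mouse 1 lay above Get1 -/- mouse 2, so the genotypes overlapped, and the difference of 0.99 ± 0.42 (SE) was 0.52 without Get1 +/+ mouse 2, the lowest array.

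In the thick filament, Myh7 encodes the type I (beta) myosin heavy chain, the protein that defines a slow fibre. Its 1 probe set read 603, 553 and 971 in Get1 -/- skin and 411, 267 and 179 in Get1 +/+ skin. The genotypes did not overlap, and the difference was 1.35 ± 0.33 (SE), a fold of 2.54. Unlike the troponins, Myh7 was lowest in Get1 +/+ mouse 3 and not in mouse 2.

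Myl3 encodes the essential light chain of slow and ventricular myosin and has 3 probe sets. The one with the highest mean read 344, 284 and 482 in Get1 -/- skin, against 260, 281 and 215 in Get1 +/+ skin, with Get1 -/- mouse 2 just above Get1 +/+ mouse 2, and differed by 0.53 ± 0.25 (SE), or by 0.32 without Get1 -/- mouse 3. The other probe sets gave larger differences, 1.29 ± 0.36 for 1427768_s_at and 0.88 ± 0.33 for 1427769_x_at (SE). In all 3 probe sets the Get1 -/- arrays lay above the Get1 +/+ arrays. The last of these had a geometric mean just under the filter, and an s or x in a probe set's name marks probes that can match other transcripts.

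Myl2, the regulatory light chain of the same myosin, could not be measured reliably. Its 1 probe set fell below the filter, with 72.0, 60.4 and 175 in Get1 -/- skin and 109, 159 and 8.37 in Get1 +/+ skin. The genotypes overlapped widely, and the difference of 0.80 ± 1.00 (SE, from the fit without the filter) changed to -0.53 when Get1 +/+ mouse 3 was left out.

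Tpm3 encodes the slow form of alpha-tropomyosin and, from other promoters and exons, tropomyosins of the cytoskeleton in many cell types. Its 5 probe sets split. Probe set 1449997_at read 390, 252 and 537 in Get1 -/- skin, against 203, 184 and 172 in Get1 +/+ skin, without overlap, a difference of 1.01 ± 0.29 (SE). Probe set 1449996_a_at was higher by 0.71 ± 0.34 and 1436958_x_at by 0.38 ± 0.22 (SE), both with overlapping genotypes.

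The remaining Tpm3 probe sets, which had the highest signals of the gene, went the other way. Probe set 1427260_a_at read 7536, 7218 and 7503 in Get1 -/- and 7626, 8493 and 7781 in Get1 +/+ skin, a difference of -0.10 ± 0.11 (SE). Probe set 1427567_a_at read 1813, 2196 and 2032 in Get1 -/- and 2483, 2643 and 2624 in Get1 +/+ skin, a difference of -0.36 ± 0.14 (SE). In both, every Get1 -/- array lay below every Get1 +/+ array. The platform annotation used here does not say which tropomyosin isoform each probe set reads.

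Atp2a2 encodes SERCA2, which pumps calcium back into the sarcoplasmic reticulum of slow fibres and, in another splice form, into the endoplasmic reticulum of keratinocytes and most other cells. None of its 6 probe sets lay higher in Get1 -/- skin without overlap. The one with the highest signal read 4814, 5759 and 5300 in Get1 -/- and 5474, 6706 and 6174 in Get1 +/+ skin, a difference of -0.21 ± 0.13 (SE) with overlap. Probe set 1427251_at read 478, 598 and 588 in Get1 -/- and 648, 859 and 827 in Get1 +/+ skin, a difference of -0.48 ± 0.19 (SE) without overlap. Probe set 1416551_at differed by 0.16 ± 0.18 and 1452363_a_at by 0.13 ± 0.19 (SE). Probe set 1437797_at differed by -0.39 ± 0.25 and 1443551_at, below the filter, by 0.03 ± 0.48 (SE).

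Taking for each gene the probe set with the highest mean, the median difference of the 8 genes was 0.87, and it was 0.54 without Get1 -/- mouse 3. Over all 11387 genes above the filter the median was 0.0076. The 4 genes Myh7, Tnnc1, Tnni1 and Tnnt1 stood near or above 1 on the log2 scale, and Tpm3 and Atp2a2, whose genes non-muscle cells also use, were slightly below 0.

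The fast-fibre partner of each slow gene shows how other muscle genes differed between the same arrays. The part of muscle amount in the slow-gene differences was not tested. Tnnc2, the fast troponin C, read 23042, 16852 and 21890 in Get1 -/- skin and 21981, 16870 and 20254 in Get1 +/+ skin, a difference of 0.06 ± 0.15 (SE). Tnni2, the fast troponin I, differed by 0.32 ± 0.25, and Tnnt3, the fast troponin T, by 0.34 ± 0.27 (SE). The light chains Mylpf and Myl1 differed by 0.23 ± 0.19 and 0.06 ± 0.14 (SE). Tpm1 differed by 0.25 ± 0.20 and the fast calcium pump Atp2a1 by 0.26 ± 0.24 (SE). The genotypes overlapped in all 7 of these, and 0 of the 7 passed at an adjusted or an unadjusted p under 0.05 (limma). Between mice of the same number, however, 5 of the 7 (all but Tnnc2 and Myl1) were higher in the Get1 -/- mouse in all 3 pairs. So were Myh7, Tnnc1, Tnni1, Tnnt1 and Myl3, which for all of these but Tnnt1 follows from the lack of overlap. No share of such pairs over all genes was computed, and the labels name no shared litter, so nothing is read from these counts. The median of the 7 was 0.25, with a range of 0.06 without Get1 +/+ mouse 2 to 0.43 without Get1 -/- mouse 2. Myh4, the type IIb heavy chain set against Myh7, read under the filter on both probe sets, so that pair has no usable partner.

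**Figure D2:**
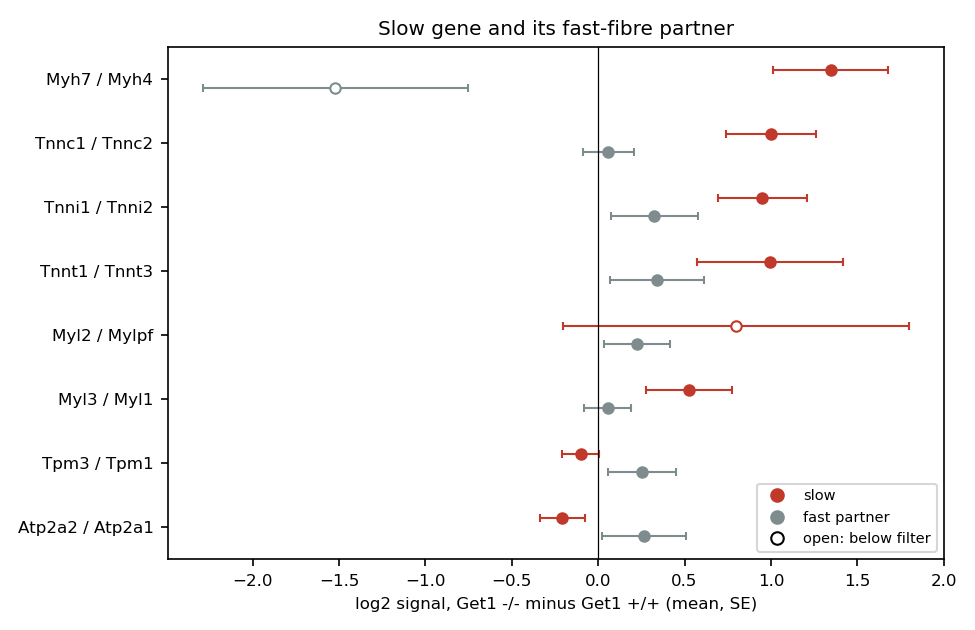
Difference in log2 signal, Get1 -/- minus Get1 +/+, with its standard error, for each slow gene (red) and its fast-fibre partner (grey), by the probe set with the highest mean, open symbols for those under the filter. The 3 slow troponins lie near 1 and their fast partners between 0.06 and 0.34.

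Within an array, the slow signal can be set against its fast partner, which removes only what changes both signals by the same factor. Over the 6 arrays Tnnc2 ranged from 16852 to 23042 and Tnni2 from 10492 to 23714. How much of a shared muscle change stays in each ratio was not tested. The ratio of 2 probe sets is not a ratio of transcripts, and only its change between arrays is read. Tnnc1 came to 22.0%, 21.9% and 25.8% of the Tnnc2 signal in Get1 -/- skin, against 13.8%, 9.43% and 13.4% in Get1 +/+ skin. Tnni1 came to 15.6%, 15.6% and 15.3% of Tnni2 in Get1 -/- skin, against 11.1%, 10.4% and 8.75% in Get1 +/+ skin. Tnnt1 came to 26.9%, 24.9% and 29.7% of Tnnt3 in Get1 -/- skin, against 21.1%, 12.5% and 19.4% in Get1 +/+ skin.

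For all 3 troponin pairs every Get1 -/- array lay above every Get1 +/+ array, including Tnnt1, which overlapped on its own. Of all 8 pairs, those under the filter included, 4 did so. No share over other gene pairs was computed, and the slow genes were chosen by this contrast, so nothing is read from these counts. Get1 -/- mouse 2 had less Tnnc2, Tnni2 and Tnnt3 signal than Get1 +/+ mouse 1 and a higher slow-to-fast ratio in each pair. That comparison rests on 1 array of each genotype, and the part of muscle amount in it was not tested. On the log2 scale the slow-minus-fast difference was 0.94 for Tnnc1, 0.63 for Tnni1 and 0.65 for Tnnt1. It was 0.47 for Myl3 against Myl1, -0.35 for Tpm3 against Tpm1 and -0.47 for Atp2a2 against Atp2a1, with overlapping arrays in these 3 pairs. Of the 6 pairs with both genes above the filter, 4 had a difference above 0, with all arrays and with any 1 array left out.

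Fast partners have some of the highest signals on the array, so signal ranges were also compared. Among 55 muscle genes that are not members and passed the filter (fast partners, other fast-fibre genes, filament and Z-disc genes, and calcium and excitation genes), the 8 with a signal over 10000 had a median difference of 0.24, the 20 from 2000 to 10000 one of 0.39 and the 27 under 2000 one of 0.34. Most fast partners belong to the first of these ranges, so the 4 leading slow genes were also compared with the 30 muscle genes in their own signal range of 431 to 3340. Those 30 had a median difference of 0.40, and 25 of them were higher in Get1 -/- skin, where 51.3% of all genes were. Only Neb and Trdn among the 30 reached the difference of Tnni1. Both were chosen after their values were seen, and their arrays overlapped. Of the 30 genes 1, Lmod2, had every Get1 -/- array above every Get1 +/+ array.

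After the array's median of these 30 genes was subtracted, Tnnc1 was at 0.24, 0.38 and 0.24 on the Get1 -/- arrays, against -0.39, -0.37 and -0.14 on the Get1 +/+ arrays (log2, relative to the gene's mean over the 6 arrays). Tnni1 was at 0.23, 0.29 and 0.26 in Get1 -/- skin and at -0.35, -0.25 and -0.22 in Get1 +/+ skin. The differences that remained were 0.93 for Myh7, 0.59 for Tnnc1, 0.54 for Tnni1 and 0.58 for Tnnt1, without overlap of the arrays in any of the 4. The embryonic heavy chain Myh3, named after its values were seen, came to 0.38, also without overlap. Myl3 came to 0.11 by its leading probe set, with overlap, and to 0.87 by 1427768_s_at, without overlap. Tpm3 1449997_at came to 0.60, with overlap. Myh7, Tnnc1, Tnni1 and Tnnt1 were picked by their difference, and the signal range of the 30 genes was set from them. The values that remained are therefore descriptions, and no share of all genes without overlap was computed after this subtraction. The 30 genes leave out the developmental and the other slow-fibre genes, whose median differences were higher, at 0.56 and 0.54.

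**Figure D3:**
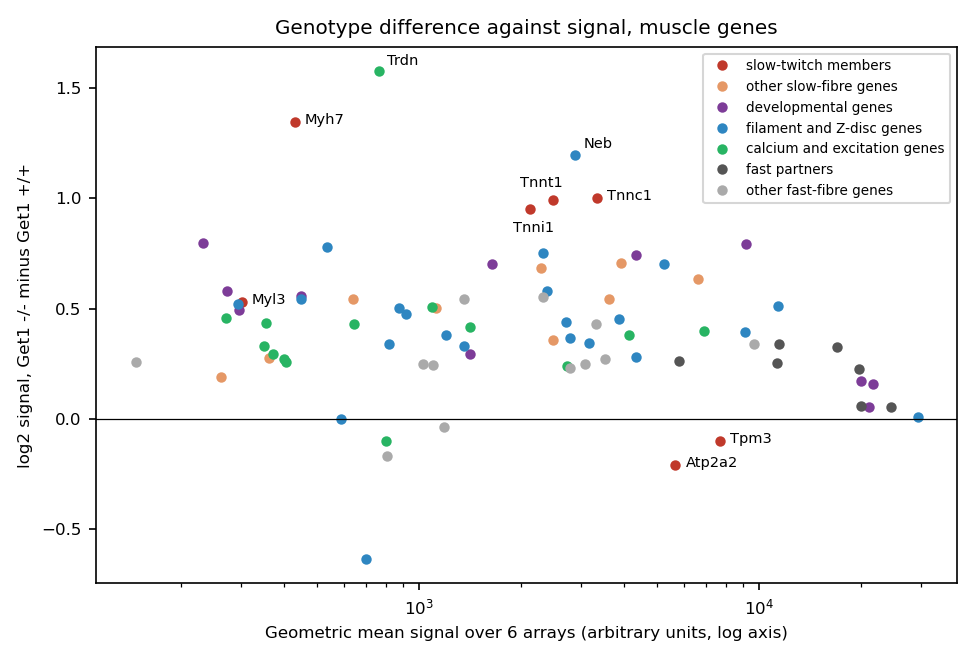
Difference in log2 signal, Get1 -/- minus Get1 +/+, against the geometric mean signal (log axis) for muscle genes that passed the filter, 1 point per gene by its probe set with the highest mean, coloured by list. Myh7, Tnnc1, Tnni1 and Tnnt1 lie above nearly all other muscle genes of similar signal, with Neb and Trdn as the exceptions, and the points over 10000 lie between 0.01 and 0.51.

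Other genes of the slow fibre were less far apart. Of 13 listed, 9 passed the filter, and all 9 were higher in Get1 -/- skin with a median difference of 0.54, where 51.3% of all genes were higher. By limma 0 of the 9 passed and 1 had an unadjusted p under 0.05, where 0.0351% and 7.19% of all genes did. Csrp3, which encodes a LIM protein of the Z-disc, read 7187, 3266 and 5385 in Get1 -/- and 3801, 2264 and 3367 in Get1 +/+ skin, a difference of 0.71 ± 0.29 (SE). Mybpc1, the slow form of myosin binding protein C, differed by 0.63 ± 0.30 and the Z-disc gene Myoz2 by 0.68 ± 0.35 (SE). The genotypes overlapped in all 9 (5.2% of all genes had the Get1 -/- arrays above the Get1 +/+ arrays), and without Get1 +/+ mouse 2 the median was 0.20 with 7 of the 9 higher.

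The other muscle lists also leaned toward Get1 -/- skin, where 51.3% of all genes were higher. By limma 0 genes in any of them passed the adjusted threshold and 3 had an unadjusted p under 0.05. Of all genes 0.0351% and 7.19% did. These 3 were Neb and Nebl among the filament genes and Myh3 among the developmental genes, and of them Nebl was lower in Get1 -/- skin. Of 12 other fast-fibre genes 10 were higher, with a median of 0.25, which became 0.03 with 6 of 12 higher when Get1 +/+ mouse 2 was left out, 0.43 without Get1 +/+ mouse 1 and 0.49 without Get1 -/- mouse 2. The glycogen phosphorylase Pygm had the smallest p of these (0.55 ± 0.29, SE). Of 22 filament and Z-disc genes 20 were higher, with a median of 0.45, or 0.23 without Get1 +/+ mouse 2 and 0.29 without Get1 -/- mouse 3. Neb, which encodes nebulin, the protein that runs along the thin filament, read 4422, 3866 and 4831 in Get1 -/- and 4281, 1273 and 1254 in Get1 +/+ skin (1.20 ± 0.42, SE). It was thus low on 2 Get1 +/+ arrays alone. Lmod2, a thin filament leiomodin, differed by 0.54 ± 0.25, and Nebl by -0.64 ± 0.23 (SE). Of the 22 genes 2, Lmod2 among them, had the Get1 -/- arrays above the Get1 +/+ arrays (9.09%, against 5.2% of all genes).

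Of 14 calcium and excitation genes 13 were higher, with a median of 0.39, or 0.14 without Get1 +/+ mouse 2, 0.21 without Get1 -/- mouse 3 and 0.59 without Get1 +/+ mouse 1. Trdn, which encodes triadin of the calcium release complex, read 1865, 663 and 1845 in Get1 -/- and 1539, 193 and 290 in Get1 +/+ skin (1.58 ± 0.72, SE). Developmental muscle genes were higher in 11 of 11, with a median of 0.56, or 0.28 without Get1 +/+ mouse 2. Myh3, the embryonic heavy chain, read 13803, 9159 and 13856 in Get1 -/- and 10777, 5235 and 5970 in Get1 +/+ skin (0.79 ± 0.27, SE), with overlap. Tnnt2, the troponin T of heart and immature skeletal muscle, differed by 0.70 ± 0.33, and the atrial and embryonic light chain Myl4 by 0.74 ± 0.35 (SE).

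**Figure D4:**
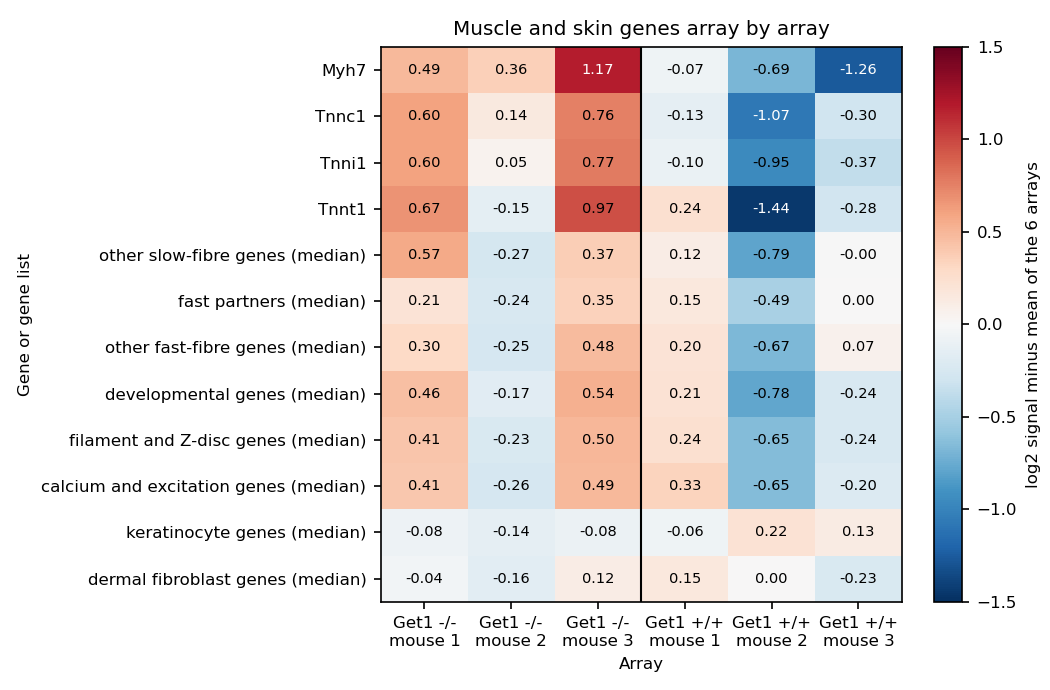
Log2 signal relative to the mean of the 6 arrays, for 4 slow genes and for the median of each gene list, with the Get1 -/- arrays on the left and the Get1 +/+ arrays on the right. Get1 +/+ mouse 2 is lowest in every muscle list, and Get1 -/- mouse 2 lies below the mean in these lists. For the slow genes Get1 -/- mouse 2 is at 0.36 (Myh7), 0.14 (Tnnc1), 0.05 (Tnni1) and -0.15 (Tnnt1).

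Muscle signal differed between mice of the same genotype. The median of the 30 muscle genes stood at 0.36, -0.24 and 0.51 on the Get1 -/- arrays and at 0.25, -0.70 and -0.15 on the Get1 +/+ arrays, so Get1 +/+ mouse 1 lay above Get1 -/- mouse 2, while in each same-numbered pair the Get1 -/- mouse was higher. Markers of keratinocytes had a median difference of -0.12, or -0.19 without Get1 -/- mouse 3 and -0.20 without Get1 +/+ mouse 1, with 9 of 9 lower in Get1 -/- skin and 0 past the threshold or an unadjusted p under 0.05 (limma). Of all genes, 51.3% were higher in Get1 -/- skin. The summed signal of the 9 keratinocyte markers was 129715 to 143272 on the Get1 -/- arrays and 144995 to 153867 on the Get1 +/+ arrays, without overlap. Gene by gene, however, the genotypes overlapped in all 9. No share of other summed lists without overlap was computed, so nothing is read from the sum. Fibroblast markers had a median of -0.02, on either side of 0 depending on the mouse left out (-0.14 to 0.04), and a summed signal of 149602 to 173510 in Get1 -/- and 138615 to 176185 in Get1 +/+ skin. The part of tissue composition in the slow-gene differences was not tested.

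Several of the 8 genes are also heart genes, and heart markers were near the floor of the array. Of 12 listed, Sln, which skeletal muscle uses too, and Myl7 passed the filter. Without Sln the summed signal of the other 11 was 645 to 770 in Get1 -/- and 600 to 950 in Get1 +/+ skin. Myh6, the alpha heavy chain of the heart, read 9.08 to 36.9 in Get1 -/- and 10.6 to 23.3 in Get1 +/+ skin, and Nppa, the atrial natriuretic peptide, 18.8 to 39.2 in Get1 -/- and 29.4 to 84.9 in Get1 +/+ skin. Among smooth muscle markers 7 of 7 were higher, with a median of 0.22, where 51.3% of all genes were higher. Des, 1 of the 7, is also in the list of filament and Z-disc genes. By limma 0 of the 7 passed the adjusted threshold and 1 had an unadjusted p under 0.05, where 0.0351% and 7.19% of all genes did. That gene was Synpo2 (0.51 ± 0.22, SE). The median was 0.03 with 4 of 7 higher without Get1 +/+ mouse 2, 0.13 with 4 of 7 without Get1 -/- mouse 3, 0.36 without Get1 +/+ mouse 1 and 0.39 without Get1 -/- mouse 2. Ucp1, which defines brown fat, did not pass the filter, and of 6 brown fat and adipocyte genes that did, 4 were higher, 0 passed the adjusted threshold and 1 the unadjusted one, against 51.3%, 0.0351% and 7.19% of all genes.

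The arrays also fall into sets by the middle probe set of the beta-actin control, at 18407 to 19858 on Get1 -/- mouse 1 and Get1 +/+ mice 1 and 2, and at 10118 to 13060 on the other 3. Within the high set Tnnc1 differed by 1.21, Tnni1 by 1.13, Tnnt1 by 1.28 and Myh7 by 0.86, and within the low set Tnnc1 differed by 0.74, Tnni1 by 0.79, Tnnt1 by 0.69 and Myh7 by 2.03. The other members, in the high and then the low set, differed by 0.35 and 0.79 (Myl3), -0.87 and 3.62 (Myl2, under the filter), -0.09 and -0.08 (Tpm3), and -0.33 and -0.16 (Atp2a2). Each of these values rests on 1 array of a genotype, so nothing is read from them.

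Regulators of fibre type lay on both sides of 0. Of 25 listed, 20 passed the filter, 13 were higher and 7 lower in Get1 -/- skin, where 51.3% of all genes were higher. The median difference was 0.14. By limma 0 passed the adjusted threshold, while 2 had an unadjusted p under 0.05, or 10.0%, near the 7.19% of all genes. The median was 0.29 without Get1 +/+ mouse 1, 0.21 without Get1 -/- mouse 2 and 0.09 without Get1 +/+ mouse 3. The 2 genes were Mef2c, a factor that works with calcineurin signalling in slow fibres (0.51 ± 0.21, SE), and Myog, the myogenin of differentiating muscle (0.79 ± 0.33, SE). Tead4 differed by -0.70 ± 0.33 (SE). In the list drawn up for satellite cells and myoblasts, Pax7, Myf5, Msc and Dmrt2 did not pass the filter, so its values are not read as a measure of these cells. From that list, Myf6 read 885, 611 and 928 in Get1 -/- and 659, 334 and 339 in Get1 +/+ skin (0.92 ± 0.30, SE), and Met differed by 0.39 ± 0.17 (SE). There 5 of 6 were higher, 0 passed the adjusted threshold and 2 the unadjusted one (limma), against 51.3%, 0.0351% and 7.19% of all genes.

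Likeness to the 8 genes was measured as Pearson's correlation over the 6 arrays with their mean deviation, among 11380 other genes. The highest were Akr1b8, Arhgef6, Nrbp2, B4galt6, Antxr1 and Smim10l1, all over 0.95 also for deviations from the genotype means, and 0 of the 25 highest belonged to a skeletal or cardiac muscle list, where 0.896% of all 11380 did, so a count of 0 says nothing about the members. Myh11, of the smooth muscle list, was among the 25. The Myl2 signal, which failed the filter, spanned 4.39 on the log2 scale over the 6 arrays, more than any other member. Without Myl2, a choice made after the values were seen, the highest were Dicer1 (0.987), Ap3m2 (0.987), Plxna3 (0.985), Slc2a3 (0.981), Slc35a1 (0.98) and AI662270 (0.979). With 6 arrays and this many genes, such values describe the arrays only.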

How the data were processed

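Total RNA of 6 back skin samples was labelled with biotin and hybridised to 1 array each, per the labels' protocols. The authors deposited linear signal intensities of 45101 probe sets, and the submitters' processing notes name MAS5. A genome build is not given in the sources used here. The 2% trimmed mean was 500.002 on every array, so no further scaling was applied. The 64 control probe sets were left out, intensities were turned into log2, and 22519 of 45037 probe sets passed the filter. Genes were named from the platform annotation (34945 probe sets with 1 symbol, 932 with several, 9160 with none). A gene is represented by its probe set with the highest mean over the 6 arrays. The test was limma (version 3.58.1, in R 4.3.3) with lmFit and eBayes with trend, two-sided, with Benjamini-Hochberg adjustment over all kept probe sets, and it was tested on simulated data. Standard errors come from this fit, and for probe sets under the filter from the same fit without the filter. The p-values set a difference against the spread between mice. The 8 genes, the lists and the tests were chosen with earlier results of these data known. Genes named are the 8 members, their fast partners, up to 3 genes per list with the smallest p, and the 6 genes most like the members. Named beside this rule, after their values were seen, are Myh6, Nppa and Ucp1 as defining markers of heart and brown fat, Myh11, and the 6 genes most like the members without Myl2. Pax7, Myf5, Msc and Dmrt2 are also named beside it, as listed genes that failed the filter.

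To check the pairing, each array's deviation from its genotype mean was correlated between same-numbered mice. The 3 correlations were 0.133, 0.26 and 0.14 over the kept probe sets, all above the limit of 0.1, and 0.0495 to 0.0553 over all probe sets. The labels name no shared litter or day. Counts of probe sets past the adjusted threshold are therefore given for both fits. Standard errors, unadjusted p-values and the counts and shares by gene come from the unpaired fit. Of 11387 genes, 4 passed the adjusted threshold in the unpaired fit and 22 with the block.

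Alternatives were quantile normalization, median centring, other filters, an offset of 37.6 before log2, a fit with no trend, weights per array, the replicate block, 1 array left out at a time, the mean of a gene's probe sets, and the 8 genes without Tpm3 and Atp2a2. The comparison with muscle genes of like signal, the likeness without Myl2 and the list counts without 1 array were added after seeing the data.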

Additional observations from a re-analysis of the deposited data

How the results depend on the processing

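Over the 22519 kept probe sets 6 passed the threshold. The count was 13 with median centring and 35 with the replicate block, and 4 to 25 with 1 array left out, the highest without Get1 +/+ replicate 1. Other filters, the offset, the fit without trend, array weights and quantile normalization kept it within 1.5 times. The median difference of the 8 genes was 0.87, with a range of 0.54 (without Get1 -/- replicate 3) to 1.16 (without Get1 +/+ replicate 1) when 1 array was left out, and 0.70 with the offset. The median of all 8 fast partners, Myh4 included, was 0.24, and 0.04 to 0.40 with 1 array left out. The median slow-minus-fast difference over all 8 pairs, Myh4 and Myl2 included, was 0.60, 0.45 to 0.75 with 1 array left out, and 0.51 with the offset. Over the 6 pairs above the filter, a choice made after seeing the data, it was 0.55, and 0.45 to 0.58 with 1 array left out. The replicate block left these 3 medians at their values, since each genotype holds each number once. Set against muscle genes of like signal, Myh7, Tnnc1, Tnni1 and Tnnt1 stayed above 0 with any 1 array left out, at 0.36 to 1.17. These genes had been picked by their difference. Of 192 values of single genes under an alternative, 190 moved by less than the SD between replicates. This count is no measure of stability. With 3 arrays per genotype, leaving 1 out cannot move a difference by that SD, and the replicate block leaves it unchanged. Myl2 is among the 190, although it went from 0.80 to -0.53 without Get1 +/+ replicate 3. The mean over all probe sets of a gene moved Myl3 to 0.90 and Tpm3 to 0.33, above 0 in place of -0.10. Low signal limits Myl2 and Myh4.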
